A study of Mus musculus with 2 samples.

Results

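Mir122, Mir192, Mir194-1, Mir194-2, Mir215 and Mir204 are microRNA (miRNA) genes known as markers of liver and kidney, the organs next to the adrenal gland. They were chosen by name, through the Ensembl identifiers of the count tables, and make up 6 of the 2202 miRNA genes counted. Their counts were read in adrenal glands of male B6CASTF1/J mice aged 4 days, F1 hybrids between C57BL/6J, a laboratory strain, and CAST/EiJ, which descends from wild mice. Small RNA under 30 nucleotides was sequenced from total RNA in 1 group of 2 libraries, with no treatment and no second condition. Replicate 2 came from male 4 and replicate 1 from male 3. Both entries carry the same donor label, so only the different male numbers show them to be separate animals.

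A miRNA is cut from a hairpin precursor, and bases 2 to 8 of the mature strand, the seed, pair with target messenger RNAs. miR-122 is the main miRNA of hepatocytes, where it is tied to cholesterol and lipid metabolism. miR-192, miR-194 and miR-215 are known from kidney, intestine and, for miR-192 and miR-194, also liver. Their genes lie in a pair of short clusters, each holding a gene of the miR-192 and miR-215 type beside a miR-194 gene. miR-204 is known from kidney, retinal pigment epithelium and choroid plexus, and is made from an intron of the ion channel gene Trpm3.

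RefSeq (GRCm38.p6) had entries for 5 of the 6 genes, all but Mir122. The leading strands are shown because they decide which genes can be told apart by a read. The seed is in capitals.
mmu-miR-192-5p: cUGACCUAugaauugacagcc
mmu-miR-215-5p: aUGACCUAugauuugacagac
mmu-miR-194-5p: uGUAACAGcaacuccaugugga
mmu-miR-204-5p: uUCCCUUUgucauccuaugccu
mmu-miR-211-5p: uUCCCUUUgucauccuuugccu
miR-192-5p and miR-215-5p have the same seed and 18 of 21 equal bases. Counted from 1 at the 5′ end of miR-192-5p, they differ by C1A, A12U and C20A. miR-204-5p shares its seed with miR-211-5p of Mir211, a gene in an intron of Trpm1, and differs from it by A17U alone over 22 bases.

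The miR-194 genes are a special case, since miR-194-5p is identical in both. Their precursors share this run of 22 bases, given in capitals in the hairpins.
Mir194-2, chr19:6264643-6264728, + strand: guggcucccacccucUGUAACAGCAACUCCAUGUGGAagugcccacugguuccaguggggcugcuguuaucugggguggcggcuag
Mir194-1, chr1:185313319-185313385, + strand: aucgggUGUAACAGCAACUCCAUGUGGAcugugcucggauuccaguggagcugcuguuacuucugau
A read of this run, or a shorter read within it, matches both loci. Reads with more than 1 locus were set aside in the deposited tables. The counts of Mir194-2 and Mir194-1 therefore miss such reads. The opposite strands of the hairpins can be told apart. In the next pair of lines the capitals mark the bases that differ, G8A, U19C, C20U and G22C from miR-194-2-3p to miR-194-1-3p.
mmu-miR-194-2-3p: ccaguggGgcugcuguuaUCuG
mmu-miR-194-1-3p: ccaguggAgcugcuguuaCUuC
None of Mir122, Mir192, Mir215 and Mir204 shared a run of 20 bases with another annotated precursor. Their longest shared runs were 12 bases for Mir122, 13 for Mir192, 11 for Mir215 and 17 for Mir204, the last with Mir211.

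On mm10, Mir194-2 and Mir192 (chr19:6264844-6264932) lie 115 bases apart on the + strand, outside other annotated genes, with Atg2a as the nearest coding gene. Mir194-1 and Mir215 (chr1:185313581-185313692) lie 195 bases apart, opposite to an intron of Iars2. On its own strand Mir215 overlaps an exon of the noncoding gene 2010103J01Rik, and Mir194-1 lies in an intron of it. Mir204 (chr19:22750605-22750672) lies in an intron of Trpm3 on the same strand. Mir122 lies on chromosome 18 and overlaps an exon of the lincRNA AC157910.3.

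The libraries held 1686822 sense-strand miRNA counts in replicate 2 and 3961630 in replicate 1. Levels are counts scaled to a library total of 1000000 of these (CPM), so that 1 count was worth 0.593 CPM in replicate 2 and 0.252 CPM in replicate 1. Reads with more than 1 locus made up 25.7% of all reads in replicate 2 and 27.0% in replicate 1. The neuroendocrine miRNA Mir375, known from endocrine cells, stood at 42377 and 31129 CPM in replicates 2 and 1. Mir202, which is linked to steroid-producing tissue, stood at 75.9 and 54.0 CPM. Each animal gave 1 library, so animal, dissection and library preparation cannot be told apart. In bulk tissue, fewer cells of a type and less RNA per cell cannot be told apart either. Intervals are exact 95% intervals and cover counting error only.

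Mir122 was by far the most abundant of the 6 genes in both libraries and differed strongly between them. It had 34752 counts in replicate 2, against 5145 counts in replicate 1. Its level was 20602 CPM in replicate 2 (interval 20388 to 20817), against 1299 CPM in replicate 1 (1263 to 1335). It was thus 2.06% of all miRNA counts in replicate 2 and 0.130% in replicate 1. The mean of 10950.4 CPM had an SD of 13649 CPM (n = 2), which exceeds the mean. Mir122 ranked 16 of 2202 genes in replicate 2, between Mir335 of the imprinted gene Mest and Mirlet7b. In replicate 1 it ranked 75, between Mir320 and Mir341. For each count of Mir126a, the endothelial miRNA with the highest mean level of the series, there were 0.247 counts of Mir122 in replicate 2 and 0.0199 in replicate 1. The level was 15.9-fold higher in replicate 2 (15.4 to 16.3).

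The other 5 members stood far lower. They are named kidney members here, though miR-192, miR-194 and miR-215 are also known from intestine, and miR-192 and miR-194 also from liver. Mir192 had 321 counts or 190.3 CPM in replicate 2 (170 to 212), against 197 counts or 49.7 CPM in replicate 1 (43.0 to 57.2). Mir194-2 had 162 counts or 96.0 CPM in replicate 2 (81.8 to 112), against 95 counts or 24.0 CPM in replicate 1 (19.4 to 29.3). Both were thus higher in replicate 2, by 3.83-fold (3.19 to 4.59) for Mir192 and 4.00-fold (3.09 to 5.22) for Mir194-2. Mir215 showed the opposite direction, with 1 count or 0.593 CPM in replicate 2 (0.0150 to 3.30), against 287 counts or 72.4 CPM in replicate 1 (64.3 to 81.3). Mir194-1 had 1 count or 0.593 CPM in replicate 2, against 39 counts or 9.84 CPM in replicate 1 (7.0 to 13.5). At the depth of replicate 2, the levels of replicate 1 would correspond to 122 counts of Mir215 and 16.6 counts of Mir194-1. Mir215 was 122-fold lower in replicate 2 (21.8 to 4843) and Mir194-1 was 16.6-fold lower (2.81 to 672).

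Mir204 was alike in both libraries, with 154 counts or 91.3 CPM in replicate 2 (77.4 to 107) and 337 counts or 85.1 CPM in replicate 1 (76.2 to 94.7). The ratio was 1.07 with an interval from 0.881 to 1.30, so that a difference of up to 1.30-fold is within counting error. Its seed relative Mir211 had 1 count in replicate 2 and 2 counts in replicate 1. Nearly all reads assigned to this pair of genes were therefore those of Mir204. The form mmu-miR-7670-3p has the same seed and is not part of this pair.

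**Figure D1:**
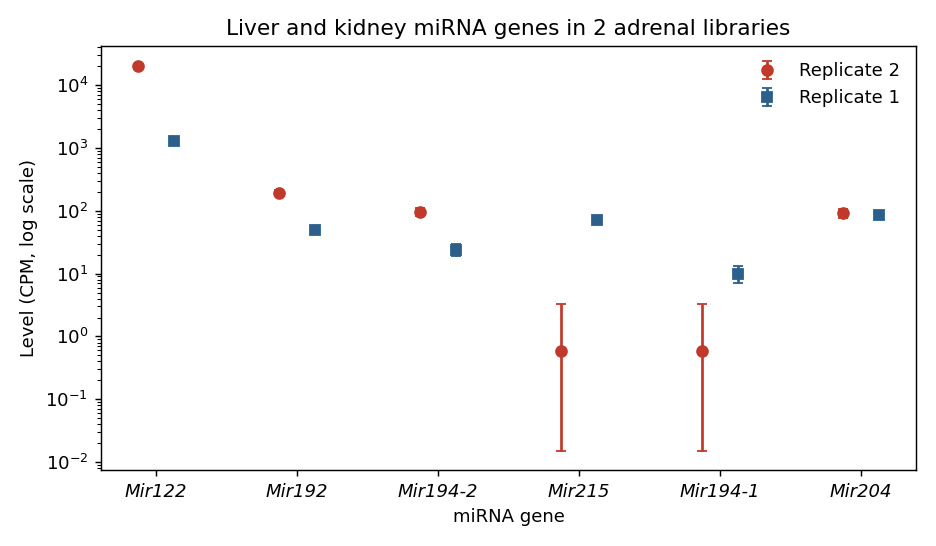
Level of each liver and kidney miRNA gene in CPM (log axis), with replicate 2 as circles to the left of replicate 1 as squares, and exact 95% intervals of the counts as bars. Mir122, Mir192 and Mir194-2 were higher in replicate 2, Mir215 and Mir194-1 stood there at 1 count each, and the intervals of Mir204 overlapped.

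The order of the members changed between the libraries below Mir122. In replicate 2 it ran Mir122, Mir192, Mir194-2, Mir204, then Mir215 and Mir194-1 at 1 count each. The intervals of Mir194-2 and Mir204 overlapped there. In replicate 1 it ran Mir122, Mir204, Mir215, Mir192, Mir194-2 and Mir194-1, and the intervals of Mir204 and Mir215 overlapped. By mean level over both libraries, Mir122 was followed by Mir192 with 120.0 ± 99.4 CPM (SD, n = 2), Mir204 with 88.2 ± 4.41 and Mir194-2 with 60.0 ± 51.0. Mir215 with 36.5 ± 50.8 CPM and Mir194-1 with 5.22 ± 6.54 CPM came last. The values of neighbours in this order overlapped over the 2 animals, except that Mir122 lay above all others in both. A read of this size range holds about 1 mature form, so levels were not divided by gene length.

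All 6 members had at least 10 counts in either library and were tested with 398 other genes by a two-sided exact binomial test of the counts against the library totals. The call needed an adjusted p under 0.05 (Benjamini-Hochberg, over all tested genes) and a log2 ratio of CPM + 0.5, replicate 2 over replicate 1, above 1 or below -1. In both libraries at once, 4 members reached 10 counts, while Mir215 and Mir194-1 passed through replicate 1 alone. This test compares 2 libraries, not conditions. It called 5 of the 6 members, 3 higher and 2 lower in replicate 2, against 18.3% of the 404 tested genes, 9.65% higher and 8.66% lower. The members were named with such results known, so this count is a description. The log2 ratios were 3.99 for Mir122, 1.93 for Mir192 and 1.98 for Mir194-2, with adjusted p = 1.20e-50 for Mir192 and 2.53e-27 for Mir194-2 (exact test). They were -6.06 for Mir215 and -3.24 for Mir194-1, with adjusted p = 3.53e-42 and 3.81e-05 (exact test). That of Mir204 was 0.10 (adjusted p = 0.550, exact test). Ignoring sign, the log2 ratios had a median of 2.61 over the 6 members and of 0.50 over all tested genes. The signed medians were 1.01 and -0.05. These medians are descriptions too. The 2.61 lies midway between the sizes for Mir194-2 and Mir194-1, and the latter rests on 1 count in replicate 2. The 1.01 lies midway between Mir204 and Mir192, among members called in both directions.

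Counting error is the smallest error such a ratio can have, so the ratios were also set against the spread of the typical gene. The common dispersion of both libraries, from edgeR over 340 genes, gave a coefficient of variation of 0.393 between the libraries. It was estimated from the same 2 libraries that the test compares, 1 against 1, and the 340 genes had at least 10 counts in both, which leaves out Mir215 and Mir194-1. With this spread added in edgeR's negative binomial exact test, 8 of 404 genes or 1.98% were called. Mir122 (adjusted p = 0.00150) and Mir215 (adjusted p = 4.90e-05) were the 2 members among the 8. Mir192 (adjusted p = 0.427), Mir194-2 (0.413), Mir194-1 (0.179) and Mir204 (1) were not called by this exact test. These p-values are therefore a rough yardstick and no replicate check. The other 6 genes called were Mir301, Mir153, Mir451a, Mir217, Mir200b and Mir26a-1. With 0.5 CPM added, Mir215 had the largest log2 ratio in size of all 404 genes, but this rests on its 1 count in replicate 2: with 5 CPM added it was -3.79, smaller in size than the 3.98 of Mir122. Also with 0.5 CPM added, Mir122 ranked 2 toward replicate 2, after Mir217, which had only 32 counts in replicate 2 and 2 in replicate 1.

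**Figure D2:**
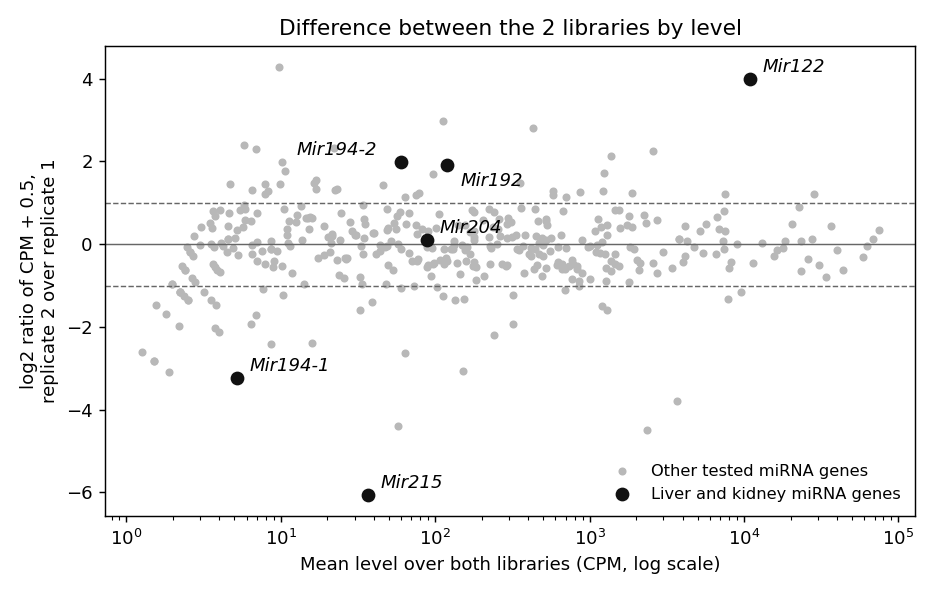
Log2 ratio of CPM + 0.5 (replicate 2 over replicate 1) against mean CPM (log axis) for the 404 tested miRNA genes, with the 6 liver and kidney genes in black and dashed lines at 1 and -1. Mir122 lies at 3.99 and Mir215 at -6.06, at opposite edges of the cloud, and Mir204 lies at 0.10.

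By counts without reads within the shared miR-194 run, the members of the chromosome 19 cluster stood in a like proportion in both libraries. For each count of Mir192 there were 0.505 counts of Mir194-2 in replicate 2 (0.415 to 0.611) and 0.482 in replicate 1 (0.373 to 0.619). Their log2 ratios differed by 0.05. Among 84 pairs of tested miRNA genes that are next to each other on 1 strand within 1000 bases, this difference ranked 5 from the smallest, and the median was 0.54. In the chromosome 1 cluster there were 0.136 counts of Mir194-1 for each count of Mir215 in replicate 1 (0.0947 to 0.190). In replicate 2 the counts of 1 and 1 gave an interval from 0.0127 to 78.5, which holds the value of replicate 1. The log2 ratios of this pair differed by 2.82, rank 2 from the largest of the 84 pairs, but at 1 count each this size depends on the added 0.5 CPM. With 5 CPM added, the log2 ratio of Mir194-1 was -1.41.

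By the counts kept, which leave out reads within the shared miR-194 run, the clusters thus took very different parts in the libraries. The chromosome 1 genes gave 2 of 485 clustered counts in replicate 2, or 0.412% (0.050 to 1.48%). They gave 326 of 618 counts in replicate 1, or 52.8% (48.7 to 56.7%). Of the counts of Mir192 and Mir215, which share a seed, Mir215 gave 0.311% in replicate 2 (0.00786 to 1.72%), against 59.3% in replicate 1 (54.8 to 63.7%). Of the counts for the miR-194 genes, Mir194-1 gave 0.613% in replicate 2 (0.0155 to 3.37%), against 29.1% in replicate 1 (21.6 to 37.6%).

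The ratio of a summed pair lies between those of its genes by construction. The sums are of all counts of each gene, not only of reads with the shared seed. Those with a miR-194 gene leave out reads within the shared run. Mir192 and Mir215 together stood at 190.9 CPM in replicate 2 and 122 CPM in replicate 1, a ratio of 1.56 (1.35 to 1.80). Mir194-2 and Mir194-1 together stood at 96.6 and 33.8 CPM in replicates 2 and 1, a ratio of 2.86 (2.26 to 3.62). The 5 kidney members summed to 379 CPM in replicate 2 and 241 CPM in replicate 1, a ratio of 1.57 (1.42 to 1.74). Mir204 was 24.1% of that sum's counts in replicate 2 and 35.3% in replicate 1.

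**Figure D3:**
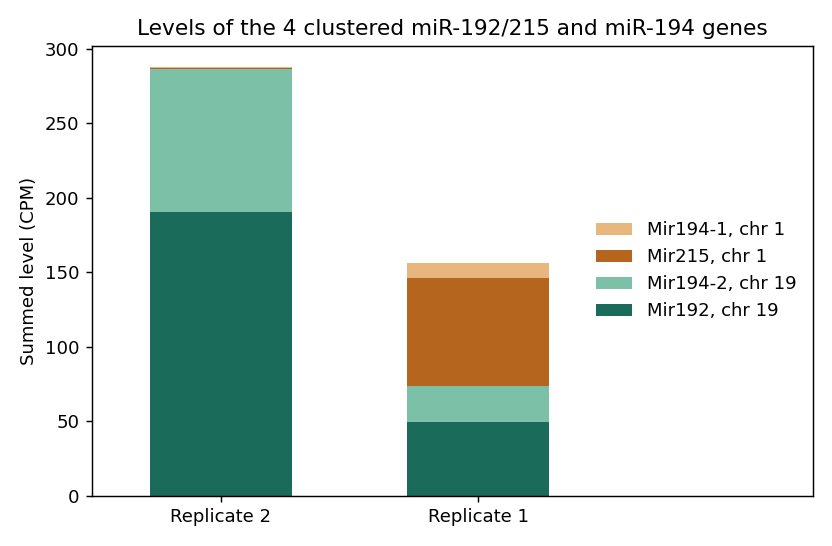
Summed CPM of the 4 clustered genes in replicate 2 (left) and replicate 1 (right), stacked by gene. The chromosome 1 genes Mir215 and Mir194-1 made up 0.412% of these counts in replicate 2 and 52.8% in replicate 1. Reads within the run shared by both miR-194 genes were set aside.

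Mir122 did not move in 1 proportion with Mir192 or with Mir204. For each count of Mir192 there were 108 counts of Mir122 in replicate 2 (97.0 to 121), against 26.1 in replicate 1 (22.6 to 30.3). For each count of Mir204 there were 226 counts of Mir122 in replicate 2 (193 to 266), against 15.3 in replicate 1 (13.7 to 17.1). Mir122 was 98.2% of the counts of the 6 members in replicate 2 and 84.3% in replicate 1.

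The genes most like each member were sought by the smallest difference of log2 ratio over the 2 libraries, among tested genes with a mean of at least 10 CPM. With 2 libraries, a like ratio is a single number and not a pattern. For both Mir192 and Mir194-2 the nearest pair held the other of them and Gm49346, a predicted gene with 28 counts in replicate 2 and 15 in replicate 1. Mir204 was matched within 0.01 by Snord43 (184 and 172 CPM in replicates 2 and 1), annotated as a miRNA gene here, and by Mir503 (927 and 865 CPM). Among these genes Mir122 had no close match: the nearest were Mir26a-1 at a log2 ratio of 2.98 and Mir31 at 2.80. Nor had Mir215, whose nearest were Mir301 at -4.50 and Mir153 at -4.39. Mir217, at 4.28, was closer to Mir122 but was left out by its mean of 9.74 CPM. Mir194-1 was nearest to Mir200b of epithelia at -3.07 and to the erythroid Mir451a at -3.80. The ratios of Mir215 and Mir194-1 used here rest on 1 count each in replicate 2 and on the added 0.5 CPM. With 5 CPM added they were -3.79 and -1.41, so these likenesses depend on the value added.

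Markers of other tissues also differed between the libraries. Calls in this and the next paragraph are those of the exact binomial test, to be read against 9.65% of all tested genes called higher and 8.66% called lower. In the negative binomial exact test, of all the marker genes outside the 6 members, Mir451a, Mir217 and Mir200b alone were called. Red blood cell miRNAs (Mir451a, Mir144 and Mir486) summed to 595 CPM in replicate 2 and 7248 CPM in replicate 1. Mir451a alone gave 491 CPM of that sum in replicate 2 and 6842 CPM in replicate 1. Mir451a and Mir144, 2 of 3, were called lower. Mir486 went the other way without a call, with 19.6 CPM in replicate 2 and 12.4 CPM in replicate 1. Pancreatic acinus (Mir217, Mir216a and Mir216b) summed to 20.7 CPM in replicate 2 and 0.505 CPM in replicate 1. Its Mir217, with 32 counts in replicate 2 and 2 in replicate 1, was called higher. Mir216a and Mir216b had 1 and 2 counts in replicate 2 and were at 0 in replicate 1. Striated muscle miRNAs summed to 2698 CPM in replicate 2 and 1146 CPM in replicate 1, with 3 of 4 tested genes called higher. Mir206 alone gave 2646 CPM of that sum in replicate 2 and 1130.1 CPM in replicate 1. There Mir133a-2 was at 0 in both libraries and Mir133a-1 in replicate 1, but reads with more than 1 locus were set aside. A count of 0 thus does not show that a mature form was absent. These lists moved in both directions.

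Of the remaining lists, epithelial miRNAs summed to 936 CPM in replicate 2 and 1318 CPM in replicate 1. Their Mir200b and Mir200c, known from tubules and ducts, were called lower and 5 other members were not called. Of those 5, Mir429, Mir200a and Mir141 were also lower in replicate 2. Mir203 (594 and 533 CPM in replicates 2 and 1) and Mir205 (63.4 and 44.2 CPM) were higher. Leukocyte miRNAs summed to 1338 and 858 CPM in replicates 2 and 1, with Mir223 called higher and 3 not called. Of those 3, Mir142 was higher in replicate 2 (617 and 421 CPM), Mir155 lower (69.4 and 118 CPM) and Mir150 alike (131 and 133 CPM). Brown fat miRNAs summed to 1801 and 796 CPM in the same order, with Mir455 called higher and 3 not called. Mir455 alone gave 1734 and 716 CPM of these sums. Without a call, Mir193b was lower in replicate 2 (42.1 and 64.6 CPM), and Mir365-1 and Mir365-2 were higher. Endothelium (83398 and 65225 CPM), neuroendocrine cells (46670 and 36299 CPM), and smooth muscle and stroma (41751 and 44515 CPM) held the most counts. In these, 1 of 10 tested genes was called, Mir7-2, which was lower in replicate 2. The list linked to adrenal cortex by function, whose genes are not specific to it, summed to 40644 and 17526 CPM. Mir21a alone gave 39571 and 17010 CPM of these sums. Mir21a and Mir132 were called higher, and Mir202 and Mir212 were not called. The part of these lists, and of depth, in the differences of the 6 members was not tested.

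**Figure D4:**
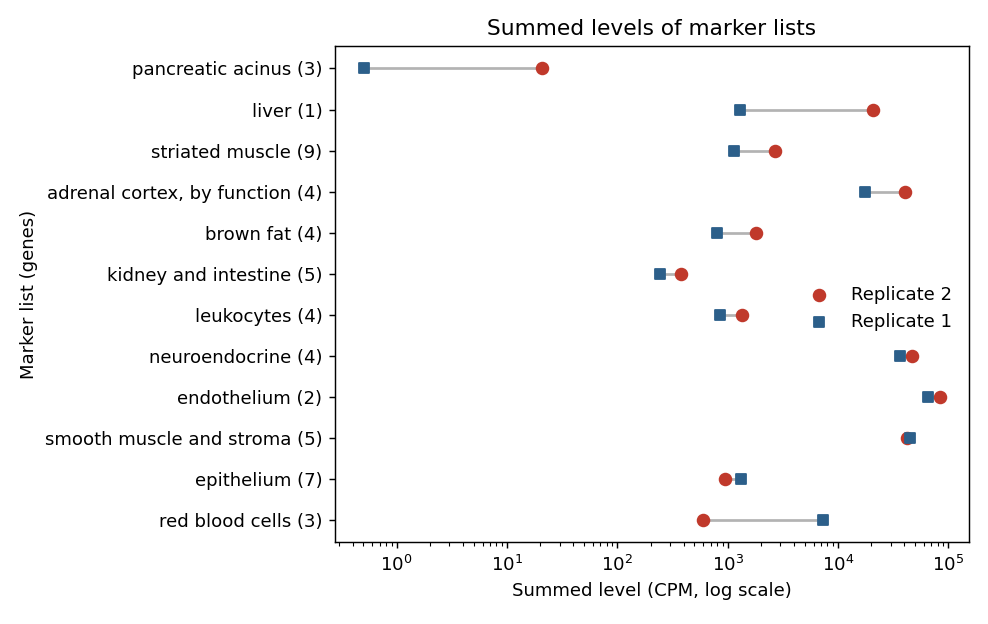
Summed CPM (log axis) of 12 marker lists in replicate 2 (circles) and replicate 1 (squares), with the number of genes in brackets, ordered by the ratio of the sums. The liver gene and pancreatic acinus lie toward replicate 2, and red blood cells lie toward replicate 1. The 5 kidney and intestine genes differed by 1.57-fold in sum.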

How the data were processed

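The authors deposited 1 table of raw read counts per miRNA gene for each library, made on mm10 with annotation M21, per the file lists beside them. The aligner, trimming and read filters are not given in the sources used here. The third column of each table was taken as the sense strand, and its 4 summary rows were left out of the totals. These rows, for unaligned reads, reads with more than 1 locus and reads outside miRNA genes, held 74.3% of the reads in replicate 2 and 66.3% in replicate 1. At all 6 members the opposite-strand column was 0 in both libraries, which allows up to 1.78 CPM in replicate 2 and 0.757 CPM in replicate 1. Identifiers were matched to GENCODE M21, and all 2202 were found.

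CPM, exact Clopper-Pearson intervals and exact binomial tests were computed in Python 3.11.15 with scipy 1.17.1, over all genes that reached 10 counts in a library. TMM factors, dispersion and the negative binomial exact test came from edgeR 4.0.16 and size factors from DESeq2 1.42.0, in R 4.3.3. Named genes were the members, the 2 genes nearest to each in log2 ratio, up to 3 leading genes of a marker list, Mir211 and Mir126a; others were named after their values were seen. The comparison of adjacent genes was also added after the values were seen. The members and lists were chosen with earlier results of these data known.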

Additional observations from a re-analysis of the deposited data

How the results depend on the processing

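No paired analysis was possible because the series has 1 group. With 2 libraries, the 12 levels with either library left out are the values of the other library and cannot move beyond the SD. Of 78 other alternatives, 7 moved, 3 lost the call and 2 changed sign. The other 66 kept their direction and side of the threshold, were gene counts close to the main one (57 to 79 of all genes) or were levels within the SD, which says little where the SD is near or above the mean. The negative binomial test left 8 genes and 2 members called, against 74 and 5, and Mir192 (log2 ratio 1.93), Mir194-2 (1.98) and Mir194-1 (-3.24) lost their calls there, since it adds the spread between the libraries. Without precursors that share 20 bases, 47 of 289 genes and 3 of 4 members were called, because Mir194-1 and Mir194-2 were then not tested. With no limit on size, 251 genes were called. The log2 ratio of Mir204, not called in any setting, was 0.10, and -0.0051 under TMM and -0.0053 under DESeq2 scaling, which shifted ratios by -0.107. Per 1000000 reads of the library, levels of all 6 members were lower by construction: 2869 for Mir122, 32.8 for Mir192, 16.4 for Mir194-2, 12.3 for Mir215, 1.73 for Mir194-1 and 26.1 for Mir204. Over either-strand totals Mir204 was at 100.7 CPM. The calls of Mir215 and Mir194-1 rest on 1 count each in replicate 2.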
